A study of Mus musculus with 2 samples.

Results

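Genes of the TGF-beta, BMP and activin pathway were read out in brown fat, the tissue whose mitochondria turn fuel into heat. They were chosen by symbol: the Bmp, Bmpr, Tgfb, Tgfbr, Smad, Smurf, Acvr, Gdf and Ltbp series, Inhba, Inhbb, Fst, Fstl1 and Fstl3, with Eng left out. The deposited table held 31 such symbols of 10761, in 37 transcript rows. Of these, 29 had a mean of at least 1 FPKM over both libraries, the level at which a gene was kept. FPKM counts fragments relative to transcript length and library size. The symbol pattern also took Tgfb1i1, which encodes a focal adhesion adaptor rather than a ligand, so it stands apart from the rest. The symbols Inhba, Inhbb and Fstl3 were not analysed here.

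The tissue came from male C57BL6/J mice of 8 to 12 weeks kept for 10 days on high-fat food (60% of calories from fat). The control group (HFD control) received that diet alone, and the treated group received SML as well, injected into the peritoneum (5 mg/kg). SML is the abbreviation in the labels, and the series title names sesaminol, a lignan of sesame. Each group was 1 library of poly(A) RNA, and how many animals went into each is not stated in the labels. All mice carried the diet, so neither library shows brown fat on ordinary chow.

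Ligands of this family are secreted as dimers and bind pairs of type I and type II receptors, which are serine/threonine kinases. The type I receptor then phosphorylates receptor Smads: Smad2 and Smad3 after TGF-beta or activin, Smad1 and Smad5 after BMP. Smad4 joins both kinds and carries them to DNA, while Smad6 and the Smurf ubiquitin ligases restrain them. In fat, BMP signalling is known for commitment to the brown lineage, and signalling through TGF-beta and Smad3 for opposing the thermogenic programme.

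From the scaled counts of the deposited table, totals of 12005329 fragments for HFD control and 8502352 for SML were estimated. A single library stood for each group, so nothing was tested, and each value below compares 2 libraries rather than 2 conditions. Ratios are SML over HFD control scaled counts with a 95% exact conditional binomial interval, which covers counting error only and neither animals nor PCR duplicates. All 14 brown adipocyte markers were in the table, with a ratio of their summed scaled counts of 0.912 (0.908 to 0.917), and none was listed at 0 FPKM in either library. Ucp1, the heat-producing uncoupling protein, led that sum with 168928 and 113303 fragments, at 8702 and 7955 FPKM. Cox8b was the highest of these markers in FPKM, at 22044 and 14824. Its ratio was 0.659 (0.649 to 0.669), and its difference of -0.57 was just short of the 1.5-fold rule given below. Ratios were above 1 for 8 of the 13 kept markers, beside 4965 of all 9870 kept genes. Of the 13 kept, 2 were higher (Dio2 at a ratio of 1.79 and Zic1 at 2.53) and 0 lower, while Prdm16, below the filter, had a ratio of 0.291 (0.192 to 0.424). Markers of other cells differed between the libraries: 17 of 17 kept skeletal muscle markers were lower in SML (summed FPKM 4507 against 306), as were 7 of 12 macrophage (with 1 higher), 3 of 12 endothelial, 3 of 11 smooth muscle and pericyte, 4 of 5 erythroid, 5 of 6 hepatocyte, 2 of 5 Schwann cell and nerve and 1 of 5 lymphocyte markers. Of 11 fibroblast markers 1 was lower and 1 higher, and the hepatocyte genes Alb and Ttr were listed at 0 FPKM in SML. These calls use the 1.5-fold rule, which called 5.45% of all kept genes higher and 5.74% lower. The lymphocyte and fibroblast counts are too small to tell from that background. In whole tissue, fewer cells of a type and less RNA per cell cannot be told apart.

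Across the pathway the receptors Bmpr2 and Acvr1c and the stress-induced ligand Gdf15 were higher in the SML library, and Smad3 and the endothelial receptor Acvrl1 were lower. These 5 passed a size rule of 1.5-fold on log2(FPKM + 1), which understates the change of low genes. The other 24 of the 29 kept members did not. Over all 9870 kept genes the same rule called 5.45% higher and 5.74% lower, and the members' 3 higher and 2 lower of 29 are near that background. The median member difference was 0.13 on the log2(FPKM + 1) scale, beside 0 over all kept genes, whose quartiles were -0.21 and 0.22. Member differences ran from -0.64 for Smad3 to 0.67 for Bmpr2. The count interval excluded 1 for 8 kept members with a ratio above 1 and 5 with a ratio below 1. That is 44.8% of them, beside 48.6% of all kept genes (25.1% above and 23.5% below).

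**Figure D1:**
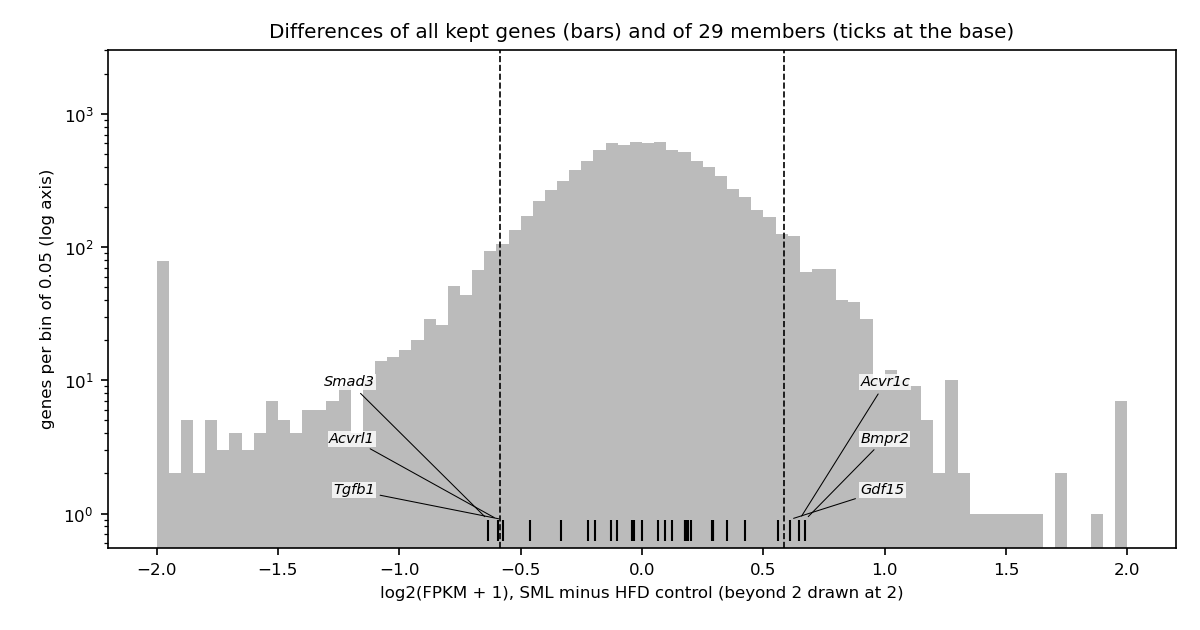
Histogram of the difference in log2(FPKM + 1), SML minus HFD control, for 9870 kept genes (log count axis), with 29 members as ticks at the base and the 1.5-fold rule as dashed lines. The members spread over the middle of the distribution, 3 lie beyond the upper line and 2 beyond the lower one, and Tgfb1 sits just inside the latter.

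Promoter sequence was available for 22 of the 31 members, as 29 windows of 300 bases (250 before to 50 after a transcription start) from RefSeq on GRCm38.p6. Windows are shown for the members past the size rule that matched and for Smad6, because these are the genes whose difference, or whose Smad motif, the results name. Acvrl1 had no window. Capitals mark matches to motifs known to be bound by Smads, searched on both strands: the short core CAGAC, the GC-rich element GGCGCC, its own reverse complement, and the palindrome GTCTAGAC. All are printed 5′ to 3′ on the gene's strand.
Bmpr2, chr1:59764029-59764328, plus strand: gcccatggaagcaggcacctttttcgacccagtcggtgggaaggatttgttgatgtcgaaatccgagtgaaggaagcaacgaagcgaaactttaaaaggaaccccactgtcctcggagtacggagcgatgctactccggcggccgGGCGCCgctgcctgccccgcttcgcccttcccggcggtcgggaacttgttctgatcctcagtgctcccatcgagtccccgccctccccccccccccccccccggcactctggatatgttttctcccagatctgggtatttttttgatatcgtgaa
Acvr1c, chr2:58357709-58358008, minus strand: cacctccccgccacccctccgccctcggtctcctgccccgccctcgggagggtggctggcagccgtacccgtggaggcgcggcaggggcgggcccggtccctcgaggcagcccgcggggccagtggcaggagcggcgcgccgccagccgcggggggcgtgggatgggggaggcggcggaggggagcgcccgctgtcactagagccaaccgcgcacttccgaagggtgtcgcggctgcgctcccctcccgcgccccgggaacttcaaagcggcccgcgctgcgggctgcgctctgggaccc
Gdf15, chr8:70632046-70632345, minus strand: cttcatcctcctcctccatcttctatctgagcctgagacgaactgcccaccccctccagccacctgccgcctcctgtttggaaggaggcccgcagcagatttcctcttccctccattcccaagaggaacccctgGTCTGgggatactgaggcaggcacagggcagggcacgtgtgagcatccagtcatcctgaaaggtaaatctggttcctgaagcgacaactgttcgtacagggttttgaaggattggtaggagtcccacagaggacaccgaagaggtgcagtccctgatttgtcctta
Smad3, chr9:63757945-63758244, minus strand: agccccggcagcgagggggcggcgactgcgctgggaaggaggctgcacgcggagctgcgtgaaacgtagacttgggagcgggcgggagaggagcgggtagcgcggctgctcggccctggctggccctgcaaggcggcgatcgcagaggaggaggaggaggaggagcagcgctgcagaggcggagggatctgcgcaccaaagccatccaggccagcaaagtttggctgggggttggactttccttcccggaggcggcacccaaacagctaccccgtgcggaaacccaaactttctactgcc
Smad6, chr9:64022010-64022309, minus strand: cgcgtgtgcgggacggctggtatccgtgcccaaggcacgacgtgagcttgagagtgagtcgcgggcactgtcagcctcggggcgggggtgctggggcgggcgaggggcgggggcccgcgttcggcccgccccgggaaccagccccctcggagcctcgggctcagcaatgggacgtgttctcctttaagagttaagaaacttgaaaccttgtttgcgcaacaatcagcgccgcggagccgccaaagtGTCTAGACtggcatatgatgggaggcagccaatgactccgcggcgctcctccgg
The 8-base palindrome GTCTAGAC was found in 1 of the 22 members, Smad6, where it begins at base 247 of the window, and in 0.213% of all 32851 windows. GGCGCC was found in 7 members, among them the BMP receptors Bmpr2 and Bmpr1a. By window that was 9 of the 29 member windows, beside 11.9% of all windows. CAGAC was found in 12 members, by window in 13 of the 29 member windows, beside 49.6% of all windows. No motif overlapped another in the windows shown. Acvr1c and Smad3 held none of these letters, which says nothing of whether a Smad binds there. The windows shown ranged in GC content from 56% for Gdf15 to 79% for Acvr1c, beside a median of 52.7% over all windows. Gdf15 and Acvr1c each had 2 windows, and the one nearer to the end of the deposited locus is shown. For Gdf15 that start lay 460 bases beyond the deposited locus.

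Among the ligands the abundant one was lower and the rarer ones went both ways. Tgfb1, the most widely expressed TGF-beta (chr7:25687001-25704996), stood at 15.1 FPKM in HFD control and 9.82 FPKM in SML. The SML library was the lower one by 1.54-fold (1.29 to 1.85, 383 and 183 fragments), yet the log2(FPKM + 1) difference of -0.57 fell just short of the size rule. It passed the rule with pseudocounts of 0.1 (-0.62) and 0.5 (-0.60) and with scaled counts (-0.62). Macrophages, which make TGF-beta, gave markers whose summed FPKM was 478 and 295 with a count ratio of 0.632 (0.605 to 0.660), none listed at 0, and their part in the Tgfb1 value was not tested. Bmp6, a BMP known from endothelium and from iron control in liver, was at 5.58 and 3.78 FPKM, a ratio of 0.675 (0.512 to 0.886).

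Gdf5, a BMP-type ligand best known from joints, was at 6.01 FPKM in HFD control and 7.94 FPKM in SML. Its ratio of 1.32 (1.06 to 1.64) was above 1 by counting error but under the size rule. Gdf15, a distant member of the family that is secreted under cell stress (chr8:70629393-70631635), was at 1.67 and 3.07 FPKM. It passed the size rule at 0.61, but its ratio of 1.83 rested on 20 and 27 fragments and its interval (0.992 to 3.45) included 1. Gdf10, a ligand close to Bmp3, was at 2.43 and 1.94 FPKM with a ratio of 0.797 (0.537 to 1.17). Tgfb3, another TGF-beta, was listed at 0.99 FPKM in HFD control and 0 FPKM in SML, although its SML scaled count was 27.7 against 26.8. The count ratio of 1.04 (0.633 to 1.68) included 1, so the 0 was not read as absence. Its locus also overlaps 5152 bases of Ttll5 on the opposite strand, and whether counting used strand is not stated.

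The latent TGF-beta binding proteins, which tether the inactive ligand to matrix, were among the most abundant members. Ltbp3 led all members in HFD control at 30.8 FPKM and stood at 34.9 FPKM in SML, a ratio of 1.13 (1.06 to 1.21). Ltbp2, which binds fibrillin rather than TGF-beta, was nearly equal at 20.7 FPKM in both libraries, with a ratio of 0.998 (0.928 to 1.07). Ltbp4 was at 15.0 and 11.7 FPKM, a ratio of 0.779 (0.702 to 0.866). None of these 3 passed the size rule, and their summed FPKM was 66.5 and 67.3.

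Of the other secreted proteins, Fstl1, a follistatin-like glycoprotein of stromal cells, was at 10.2 and 8.77 FPKM with a ratio of 0.862 (0.742 to 1.0). Bmp1, a metalloprotease that cuts procollagen and chordin and is no ligand despite its name, was at 1.82 and 2.44 FPKM with a ratio of 1.34 (0.984 to 1.83). Fst, follistatin, which traps activin, was at 0.92 and 1.21 FPKM, from 29 and 28 fragments. None of them differed beyond counting error.

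**Figure D2:**
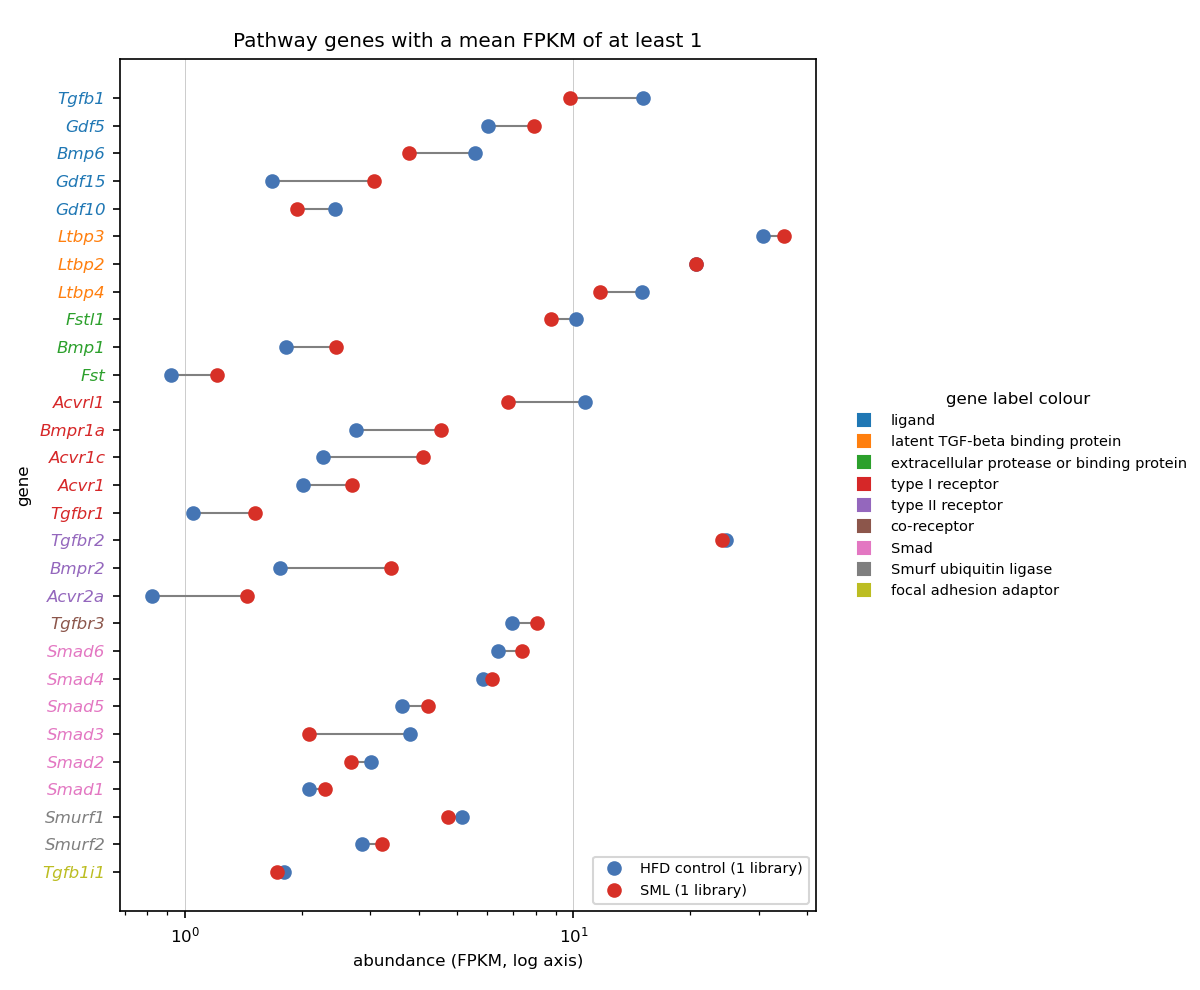
FPKM of the 29 kept members in the HFD control and SML libraries (log axis), 1 point per library and gene, grouped by role. Ltbp3, Tgfbr2 and Ltbp2 lie above 20 FPKM in both libraries, while most type I receptors, Bmpr2 and Acvr2a lie below 5 FPKM.

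The kept receptors differed in both directions, from -0.59 for Acvrl1 to 0.67 for Bmpr2 on the log2(FPKM + 1) scale. The kept ligands spanned a similar range, from -0.57 for Tgfb1 to 0.61 for Gdf15. Bmpr2, the type II receptor for BMPs (chr1:59764278-59878081), was at 1.76 FPKM in HFD control and 3.40 FPKM in SML. That was 1.93-fold higher in SML (1.64 to 2.27, 255 and 362 fragments). Bmpr1a, a type I BMP receptor required for brown fat formation (chr14:34411067-34502546), was at 2.76 and 4.55 FPKM. Its ratio was 1.65 (1.36 to 2.0), and its log2(FPKM + 1) difference of 0.56 was just under the size rule. With pseudocounts of 0.1 and 0.5, scaled counts or totals equal outside the 50 most abundant genes it passed, at 0.61 to 0.71. Acvr1, a further type I receptor for BMPs, was at 2.01 and 2.69 FPKM with an interval that included 1 (1.34, 0.944 to 1.90).

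Acvrl1, the type I receptor of endothelial cells (chr15:101128521-101145336), went the other way, at 10.7 FPKM in HFD control and 6.78 FPKM in SML. It was 1.59-fold lower in SML (1.36 to 1.87, 487 and 225 fragments). The endothelial marker list moved with it: 3 of 12 markers were lower and 0 higher, the summed FPKM was 317 and 212, and the count ratio was 0.700 (0.676 to 0.724), with none listed at 0. The part of endothelial RNA in the Acvrl1 value was not tested. Acvrl1 exceeded Bmpr1a by 3.89 times in HFD control and 1.49 times in SML on the FPKM scale. The HFD control value of Acvrl1 includes a transcript row listed at 0 in SML, without which it was 8.76 FPKM. Summed over Acvr1, Acvrl1, Bmpr1a and Bmpr2, BMP-type receptor FPKM was 17.3 in HFD control and 17.4 in SML. The summed scaled counts, in which long transcripts weigh more, had a ratio of 1.20 (1.10 to 1.32).

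The TGF-beta receptors differed less. Tgfbr2, the type II receptor, was the second most abundant member at 24.7 FPKM in HFD control and 24.2 FPKM in SML, with a ratio of 0.977 (0.902 to 1.06). Its log2(FPKM + 1) difference was -0.03, and 0.02 with totals set equal outside the 50 most abundant genes. Tgfbr1, the type I partner, was at 1.05 and 1.51 FPKM with a ratio of 1.45 (1.05 to 2.01) from 76 and 81 fragments. Tgfbr2 thus exceeded Tgfbr1 by 23.5 times and 16.0 times in FPKM. Tgfbr3, betaglycan, the co-receptor that presents ligand, was at 6.96 and 8.07 FPKM with a ratio of 1.16 (1.02 to 1.31).

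Among activin-type receptors Acvr1c, a type I receptor of adipocytes known for restraining lipolysis (chr2:58267452-58357758), was at 2.26 FPKM in HFD control and 4.11 FPKM in SML. It was 1.77-fold higher in SML (1.51 to 2.09, 265 and 346 fragments). Acvr2a, a type II receptor for activins, was at 0.82 and 1.44 FPKM with a ratio of 1.74 (1.23 to 2.49). The deposited Acvr2a locus also spans 46444 bases of Orc4 on the opposite strand, so fragments of the neighbours may not be separated. Acvr2b, its relative, was listed at 0.50 FPKM and 0 FPKM but had 10 and 15 fragments, with a ratio of 2.04 (0.857 to 5.08), and lay below the filter.

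**Figure D3:**
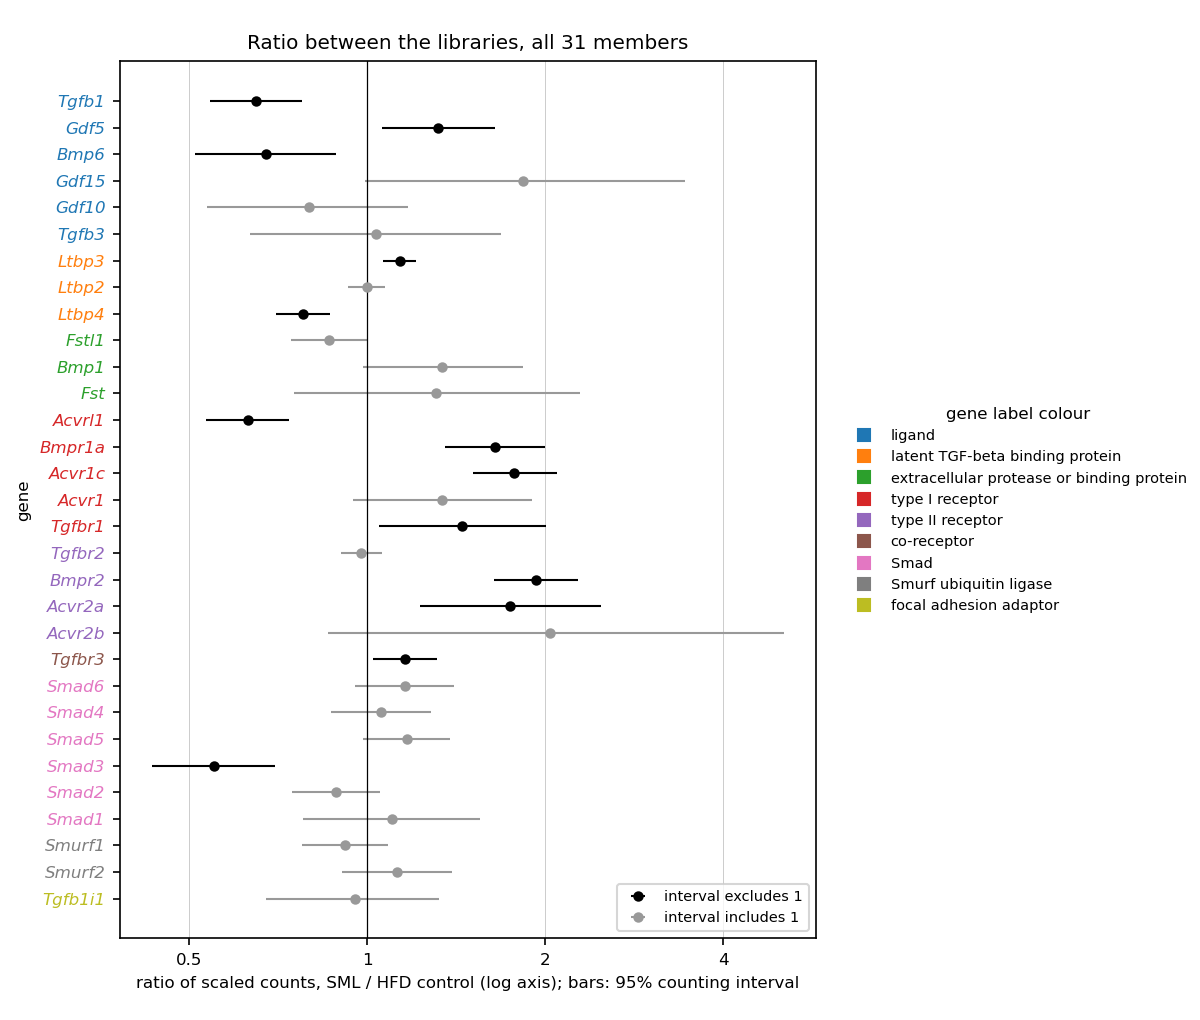
Ratio of scaled counts, SML over HFD control, for all 31 members (log axis), with 95% counting intervals as bars and black for intervals that exclude 1. Bmpr2, Acvr1c, Acvr2a, Bmpr1a and Tgfbr1 lie to the right of 1, and Smad3, Acvrl1, Tgfb1 and Bmp6 to the left.

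Of the intracellular members, Smad3 differed and the other Smads hardly did. Smad3 (chr9:63646766-63757994), the transcription factor of the TGF-beta and activin branch, was at 3.80 FPKM in HFD control and 2.09 FPKM in SML. It was 1.82-fold lower in SML (1.43 to 2.32, 247 and 100 fragments). Smad2, its close relative, was at 3.01 and 2.67 FPKM, with a ratio of 0.886 (0.745 to 1.05). The FPKM of Smad3 was 1.26 times that of Smad2 in HFD control and 0.783 times in SML, so the order of the pair in FPKM was the opposite in the treated library. No interval was computed for this proportion.

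Smad1 and Smad5, the BMP branch, were at 2.08 and 3.62 FPKM in HFD control and at 2.29 and 4.23 FPKM in SML. Their ratios of 1.10 (0.779 to 1.55) and 1.17 (0.985 to 1.38) included 1. Summed FPKM of Smad2 and Smad3 was 1.19 times that of Smad1 and Smad5 in HFD control and 0.730 times in SML, also without an interval. Smad4, the shared partner, was at 5.85 and 6.17 FPKM with a ratio of 1.05 (0.868 to 1.28). Smad6, an inhibitory Smad that BMP signalling induces, was at 6.38 and 7.39 FPKM with a ratio of 1.16 (0.955 to 1.40). The ubiquitin ligases Smurf1 (5.17 and 4.75 FPKM) and Smurf2 (2.86 and 3.21 FPKM), which mark receptors and Smads for breakdown, and the adaptor Tgfb1i1 (1.8 and 1.72 FPKM) also had intervals that included 1.

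Base composition went along with the member differences. Across the 29 kept members the difference had a Spearman correlation of -0.45 with the GC content of the longest coding transcript, and across 9524 kept genes with a value it was -0.33. These are descriptions across genes that share the same 2 libraries. Of the 7 members with transcripts below 45% GC, 6 had ratios above 1, and their differences ran from -0.13 for Smad2 to 0.67 for Bmpr2. The receptors among them, Acvr1c, Acvr2a, Bmpr1a, Bmpr2 and Tgfbr1, had differences of 0.29 to 0.67, and Smad5 had 0.18. Of the 22 members at or above 45% GC, 11 had ratios above 1. Over all kept genes, whatever their GC content, 4965 of 9870 did, and all genes below 45% GC were not counted apart. With the trend of the difference on GC content and length removed over all genes, the 5 receptors ranged from 0.00 for Tgfbr1 to 0.34 for Bmpr2, and Smad2 stood at -0.28. In that setting 1 member remained past the size rule as higher, Gdf15 at 0.75, beside 4.15% of all genes. None was lower, beside 4.78%, with Smad3 at -0.58 just short of the rule, Acvrl1 at -0.49 and Tgfb1 at -0.48.

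**Figure D4:**
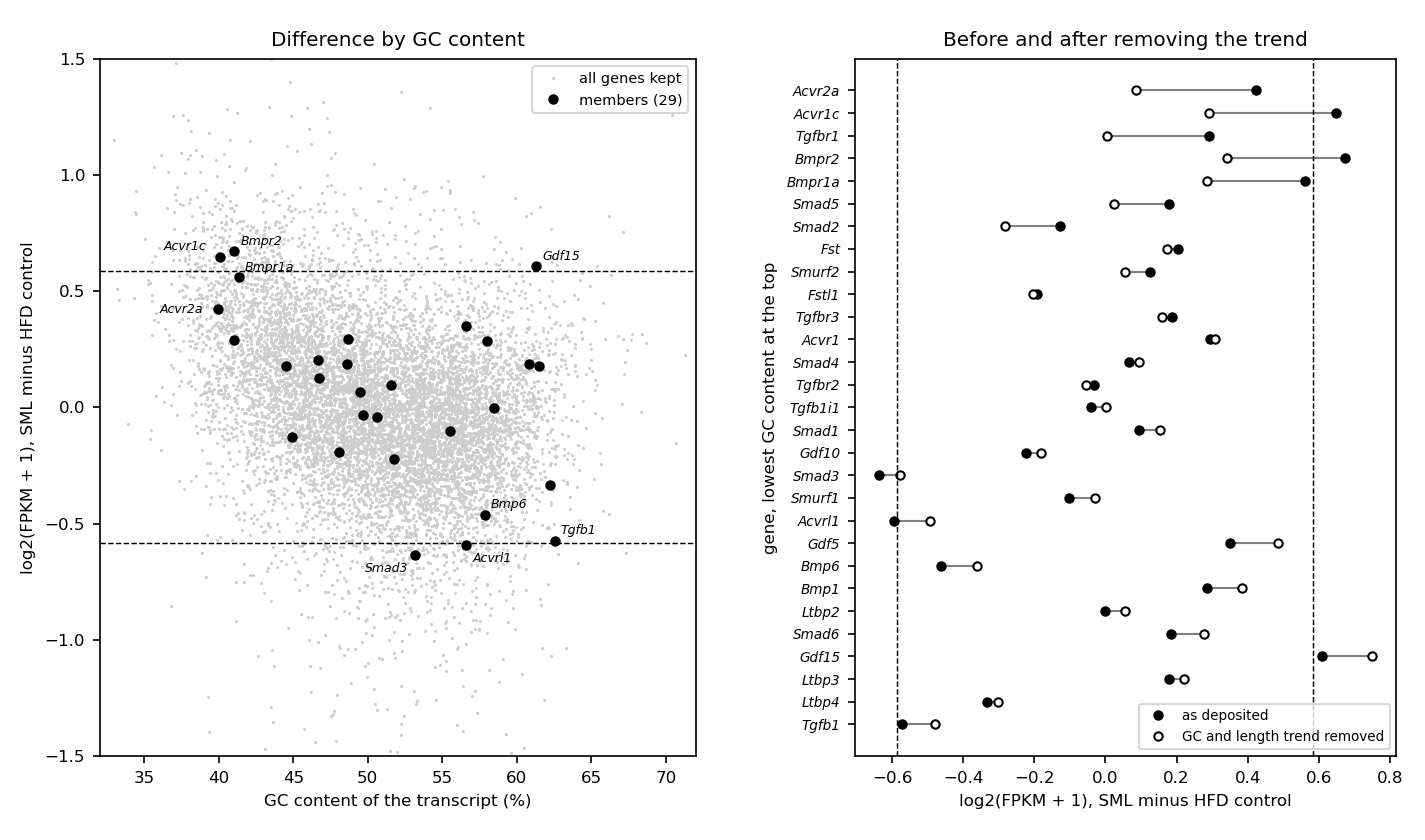
Left, difference in log2(FPKM + 1), SML minus HFD control, against transcript GC content for all kept genes (grey) and 29 members (black). Right, each member before (filled) and after (open) removal of the GC and length trend, ordered by GC content, with the 1.5-fold rule dashed: the receptors with the lowest GC content moved most, and Gdf15 alone stayed beyond a line.

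Of the members, 5 had more than 1 transcript row, and in 3 of them the rows differed from each other. Acvr1c had 2 rows: TCONS_00018807 held 96.9% of its scaled counts in HFD control and 43.9% in SML, while TCONS_00018806 held 3.08% and 56.1%. The first row was lower in SML (ratio 0.804, 0.654 to 0.986) and the second higher, from 8 to 194 fragments, so the higher sum came from 1 row. Taking only TCONS_00018807, the row with the higher FPKM over both libraries together, turned the Acvr1c difference to -0.21. Both rows have the same deposited locus, and how fragments were split between them is not stated.

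Acvrl1 had 3 rows, and TCONS_00010789 went from 91 fragments to 0. The other rows had ratios of 0.768 (0.629 to 0.930) and 0.787 (0.561 to 1.09). Without the row at 0, an alternative chosen after seeing the data, Acvrl1 was at 8.76 and 6.78 FPKM with a difference of -0.33, short of the size rule. Fst had 2 rows with near equal shares in HFD control (14 and 15 fragments) and a single filled row in SML (28 and 0 fragments). Smurf1 and Tgfbr2 kept the same leading row in both libraries, with 63.7% and 68.5% of the Smurf1 counts and 92.5% and 94.4% of the Tgfbr2 counts.

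**Figure D5:**
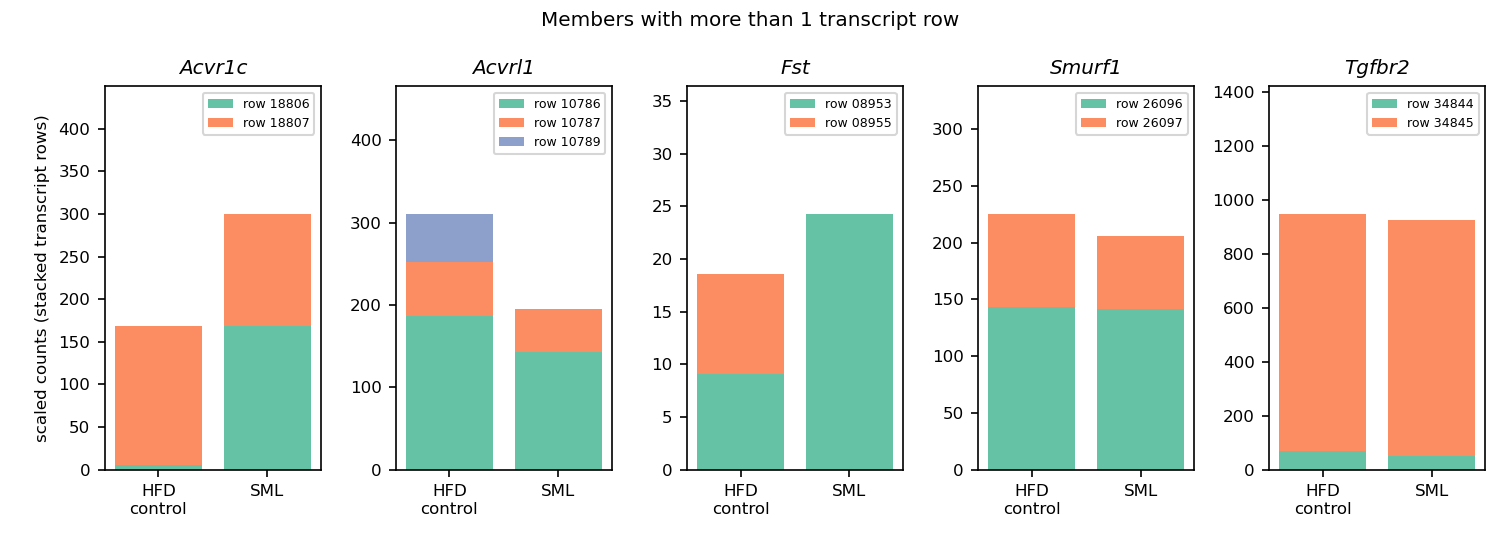
Scaled counts of the 5 members with more than 1 transcript row, stacked by row (named by the last digits of its identifier) for the HFD control and SML libraries. In Acvr1c the row that is nearly empty in HFD control makes up 56.1% of the SML bar, and in Acvrl1 the row on top is missing from the SML bar.

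Beyond the members, 163 further pathway genes were listed, of which 112 were in the table and 105 were kept. By the size rule 3 were higher and 6 lower, beside 5.45% and 5.74% of all genes, and their median difference was 0.04. Of 28 kept Smad cofactors, anchors and turnover genes, 2 were higher and 2 lower. Skil, which encodes the Smad corepressor SnoN, was at 0.64 and 2.21 FPKM, 3.45-fold higher in SML (2.50 to 4.78). Wwp1, a ubiquitin ligase of the Smurf family, was at 3.50 and 6.72 FPKM, 1.90-fold higher (1.63 to 2.21), and its difference was 0.42 after removal of the GC and length trend. Tgif1, another Smad corepressor, was at 3.19 and 1.35 FPKM, 2.13-fold lower (1.24 to 3.80, 55 and 19 fragments). Schip1 was the other lower gene, at 3.01 and 0.01 FPKM with a count ratio of 0.492 (0.284 to 0.823).

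Of 14 kept co-receptors and receptor modulators, 1 was higher and 1 lower, beside 5.45% and 5.74% of all kept genes. Nrp1, a co-receptor that also binds vascular growth factor, was at 22.0 and 36.3 FPKM, 1.65-fold higher (1.55 to 1.76). Hfe2, the BMP co-receptor hemojuvelin, which skeletal muscle expresses, was at 10.4 and 0.95 FPKM, 11-fold lower (6.76 to 19.2). It stood beside the skeletal muscle list, of which 17 of 17 kept markers were lower at a median of -3.64, and the part of muscle RNA in it was not tested. None of the 16 kept genes of ligand latency and activation, the 9 extracellular antagonists or the 13 kinases and adaptors of the non-Smad branch passed the rule (0 higher, 0 lower), with medians of -0.10, -0.06 and 0.16. These lists are too small to tell 0 from the shares of all kept genes. With the GC and length trend removed, Tab1 of the last list passed the rule as higher, at 0.64. Itgav, the integrin chain that helps release TGF-beta, had the highest value of the first list at 0.52 (0.85 and 1.66 FPKM), and Itgb5 the lowest at -0.47 (28.3 and 20.2 FPKM).

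Target genes of the pathway were read as lists. Of 16 BMP targets listed, 9 were in the table and 8 were kept, Smad6 included. Smad7 and Id4 were among those not in the table. Of the 8 kept, 0 were higher and 0 lower, beside 5.45% and 5.74% of all kept genes. Their median was 0.10, and 0.22 with the GC and length trend removed. Id1, a direct BMP target that inhibits differentiation factors, was at 96.8 and 99.3 FPKM with a ratio of 1.02 (0.927 to 1.13). Id3, its relative, was at 158 and 116 FPKM with a ratio of 0.732 (0.674 to 0.795). Hes1 was at 7.89 and 12.0 FPKM with a ratio of 1.51 (1.19 to 1.93), and passed the size rule at 0.67 with that trend removed.

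Of 23 kept TGF-beta targets 1 was higher, Skil, and 3 were lower, beside 5.45% and 5.74% of all kept genes. Their median was -0.18, beside 0 over all kept genes. The lower ones were Timp1, an inhibitor of matrix proteases, from 26 and 6 fragments (3.04-fold, 1.28 to 9.47), the cell cycle inhibitor Cdkn1a (1.72-fold, 1.51 to 1.95) and the matrix protein Tgfbi (1.64-fold, 1.30 to 2.07). Pmepa1, a feedback inhibitor of Smad2 and Smad3, was at 77.3 and 99 FPKM with a ratio of 1.28 (1.23 to 1.34). The summed FPKM of the TGF-beta targets, led by Vim, was 810 and 871, with a count ratio of 1.07 (1.05 to 1.09). Macrophage markers, at a count ratio of 0.632, and smooth muscle and pericyte markers, at 0.754, were lower in the same library, and their part in these lists was not tested.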

How the data were processed

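The deposited table gave, for 14189 assembled transcripts, FPKM computed by the authors and a count column per library; per the submitters' processing notes CASAVA 1.8 and Cufflinks were used with build mm10. No aligner, annotation release or filter is given in the sources used here. Values in both deposited count columns were a scaled signal rather than raw counts, low ones lying in steps of 0.637 (HFD control) and 0.866 (SML). Of 531 and 767 values of up to 20 steps, 90.6% and 90.7% were whole within 0.1, and counts divided by the step were taken as fragments.

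Rows were summed per symbol, and 30 rows whose symbols had become dates were left out. Genes with a mean of at least 1 FPKM were kept (9870), a pseudocount of 1 was used, and the size rule was 1.5-fold. With 1 library per group no test was made. GC content and length came from GENCODE M21 transcripts (longest coding transcript, quadratic fit on both), and promoter windows from RefSeq GRCm38.p6. Deposited loci are on mm10. Python 3.11.15, numpy 2.4.6, pandas 2.3.3, scipy 1.17.1 and matplotlib 3.10.9 were used. The procedure (step, interval, trend removal) was tested on simulated fragments.

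All members are accounted for; those past the size rule, with an interval excluding 1, or most abundant in their role are described in full, as are genes of the other lists past the rule; some of a list's 2 highest or 2 lowest are named too. Id1, Pmepa1, Dab2, Fn1 and Usp15 were named after their values were seen. The members and lists were chosen with earlier results of these data known. The alternatives were other pseudocounts, filters, scalings, units, row choices and size rules, and removal of the GC and length trend.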

Additional observations from a re-analysis of the deposited data

How the results depend on the processing

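The 3 members called higher became 5 (Bmpr1a and Acvr2a joined) with a pseudocount of 0.1 or with scaled counts in place of FPKM, 1 after removal of the GC and length trend, 4 with a pseudocount of 0.5 or with totals equal outside the 50 highest genes (Bmpr1a joined), 2 with the highest transcript row per symbol, and 0 among members with a mean of at least 5 FPKM or under a 2-fold rule. The 2 called lower became 4 without a filter on low values (Acvr2b and Tgfb3, listed at 0 FPKM in SML, joined), 3 with pseudocounts of 0.1 or 0.5 or scaled counts (Tgfb1 joined) or with at least 30 fragments in place of the FPKM filter (Tgfb3 joined), 1 with totals equal outside the 50 highest genes, with the highest transcript row per symbol or at a mean of at least 5 FPKM, and 0 with the trend removed or under a 2-fold rule. Of the other pathway genes, 12 were higher with a pseudocount of 0.1, 6 with 0.5, 13 with scaled counts and 6 with the highest row, in place of 3. The 6 lower ones became 12 with a pseudocount of 0.1, 10 with scaled counts, 10 without a filter and 3 at a mean of at least 5 FPKM. Shares over all kept genes were counted only for the main rule (5.45% higher, 5.74% lower) and with the trend removed (4.15% and 4.78%). Under the other alternatives the counts above therefore have no background to be read against. The median member difference of 0.13 was 0.16 and 0.14 with pseudocounts of 0.1 and 0.5, 0.10 without a filter, -0.0020 at a mean of at least 5 FPKM, 0.11 with at least 30 fragments, 0.16 with scaled counts, 0.17 with totals equal outside the 50 highest genes, 0.12 with the median of gene ratios set to 1, 0.0559 with that trend removed and 0.0805 with the highest row. Over the 10 alternatives that change a value or the filter, the 2-fold rule and the interval rule left aside, 16 of 271 pairs of a member and an alternative changed the call and 5 the sign, of which Acvr1c at -0.21 with the highest row was the one reversal of a called member. The scalings moved all genes by at most 0.05 on the log2 scale. The median over all genes was -0.02 without a filter, beside 0.10 for the members. It was 0.05 with totals equal outside the 50 highest genes, beside 0.17, and 0.03 with the trend removed, beside 0.0559. Members with fewer than 100 fragments, such as Gdf15, Fst and Acvr1, have wide intervals at this depth. No paired analysis was possible because each group had 1 library.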

Other observations

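In some pathway genes with several transcript rows the deposited FPKM and scaled counts went apart. Dab2, an endocytic adaptor that binds Smads, was at 2.44 and 1.43 FPKM while its count ratio was 1.15 (0.879 to 1.52). Fn1, fibronectin, was at 2.10 and 1.32 FPKM with a count ratio of 1.01 (0.816 to 1.25). Usp15, a deubiquitinase of the receptor complex, was at 2.23 and 2.26 FPKM with a count ratio of 1.43 (1.23 to 1.67). Among the members, Tgfb3 and Acvr2b, each with 1 transcript row, were listed at 0 FPKM in SML with 32 and 15 fragments. Their scaled counts implied 1.02 FPKM each in SML.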
